A study of Mus musculus with 4 samples.

Results

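The Hox genes are described here as a record of body position in lymphatic endothelial cells and of what became of that record in culture. They were chosen by symbol alone, as every gene named Hox with a cluster letter from a to d and a number, and antisense genes were left out. This gave 39 of the 23337 genes in the tables. HoxA on chromosome 6 held 11 of them, HoxB on chromosome 11 held 10, HoxC on chromosome 15 held 9 and HoxD on chromosome 2 held 9. No measured value entered the choice.

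The study measured RNA from mouse lymphatic endothelial cells at embryonic day 14.5, in 4 groups of 1 library each. The groups were wild type cells before culture, homozygous deletion mutant cells before culture, and both genotypes after 7 days of culture. The series title names an enhancer bound by GATA2, and the labels do not state which bases were deleted. Per the labels' protocols, each genotype was represented by 1 whole litter, whose dorso-anterior regions were dissociated together and sorted for cells with LYVE1 and VECAD but without CD45. Cells of the cultured groups came from the same sorts, were grown on OP9 stromal feeder cells with FLT3L, IL3 and SCF at 100 ng/ml each, and were sorted again for LYVE1 and VECAD. The values of 4 libraries are always given in the order wild type before culture, mutant before culture, wild type after culture and mutant after culture. No group has a replicate, so groups were compared without a test, all intervals are 95% intervals for counting error alone, and each comparison is between 2 libraries. The 1 test used is a fit over all 4 libraries that takes each genotype as a pair before and after culture.

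Hox genes encode homeodomain transcription factors, and each cluster is read along the head to tail axis in the order in which its genes lie on the chromosome. Genes with low numbers are first active toward the head, genes with high numbers only toward the tail, and genes with the same number in different clusters are paralogues that arose from a common ancestor. Cells of many tissues keep the combination set by their place of origin, and in endothelium several Hox factors are known to steer vessel growth or quiescence. Groups 1 to 4 are called anterior below (12 genes), groups 5 to 8 central (11 genes) and groups 9 to 13 posterior (16 genes).

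Gene counts totalled 3987150, 7943587, 1694669 and 3931557. The libraries before culture carried more counts in genes that should be silent in these cells: per kb of coding sequence, 1432 olfactory and vomeronasal receptor genes had 6.63, 8.33, 0.536 and 1.61 counts. These are raw counts at unequal depth, and scaled for depth the receptor genes summed to 2058, 1398, 603.8 and 744.3 CPM. A Hox gene was called above background where the lower limit of its count lay above the 95th percentile of the receptor genes, scaled to its exon length. Summed markers of lymphatic endothelium (7 of 7 found) stood at 7590, 7177, 7517 and 6324 CPM, but the members moved apart in culture. Prox1, Pdpn, Reln and Mmrn1 were lower after it by over 2-fold across the whole interval in both genotypes. Lyve1, a marker of the sort, was higher by that measure in both. In wild type cells 2 of the 7 were higher, Lyve1 and a gene that was not a marker of the sort. Median log2 folds of the list were -1.29 and -1.82. Pdpn had 0 counts in wild type and 8 in mutant cells after culture. Of 8 markers of endothelium in general, 6 in wild type and 5 in mutant cells were higher by that measure and 0 lower, and the list summed to 3836, 4062, 11560 and 10450 CPM. Markers of mesenchyme (12 of 12 found) summed to 3339, 5335, 1232 and 1046 CPM, with Lum at 0 counts in the wild type library after culture. Those of cartilage (5 of 5 found) summed to 604.9, 932.9, 207.3 and 224.6 CPM, those of neural cells (10 of 10) to 106.2, 118.2, 32.7 and 44.3, and those of leukocytes (6 genes) to 71.9, 72.0, 23.3 and 34.1. Among these, Stmn2 of neural cells and Coro1a of leukocytes had 0 counts in the wild type library after culture. Markers of fat-forming stroma (6 of 6 found) summed to 90.3, 81.6, 870.1 and 624.7 CPM, with none at 0. These markers moved with culture, the same contrast as most Hox results below. Some also differed between genotypes before culture. Median log2 folds of mutant to wild type were 0.66 for mesenchyme, 0.49 for cartilage and 0.64 for 7 skeletal muscle genes, where all genes had 0.04. Those of the other lists above ran from -0.09 to 0.07. Actc1 of muscle was higher in mutant cells by over 2-fold across the whole interval, as were 0.0158% of all genes. After culture the median of mutant to wild type was -0.47 for fat-forming stroma, with 5 of 6 genes below 0, where all genes had 0.004. In that list 1 gene was lower by over 2-fold across the whole interval, as were 0.0731% of all genes. The other lists above ran from -0.26 for lymphatic endothelium to 0.95 for leukocytes, the latter on 2 measured genes. The part of the markers in the Hox results was not tested. In such bulk samples, fewer cells of a type and less RNA per cell cannot be told apart.

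All Hox genes together held 1531, 2718, 382 and 980 counts, or 307.3, 295.0, 277.9 and 293.1 CPM on the TMM scale (trimmed mean of M values, which centres the bulk of all genes). The summed level was thus nearly the same in the 4 libraries. The mutant to wild type fold of the sum was 0.960 (0.902 to 1.02) before culture and 1.06 (0.936 to 1.19) after it. The fold after culture over before was 0.905 (0.807 to 1.01) in wild type and 0.993 (0.923 to 1.07) in mutant cells. Receptor background made up more of the sum before culture, when Hox genes stood at 2.68 and 3.79 times the receptor rate per kb, than after culture, when they stood at 8.27 and 7.07 times it. With that background subtracted and the TMM factors kept, the culture fold was 1.27 (1.10 to 1.46) in wild type and 1.16 (1.06 to 1.27) in mutant cells. With the factors recomputed on the subtracted counts it was 0.955 (0.831 to 1.10) and 1.02 (0.930 to 1.11), near the unsubtracted values. On total counts it was 0.587 and 0.729, so the direction of the sum follows the scaling. Shares of the Hox counts, and ratios of 1 fold to another, do not depend on the scaling. Levels in CPM per kb and single folds do, and those given below are on the TMM scale unless another is named. Single folds with background subtracted also keep the TMM factors of the unsubtracted counts.

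Of the 39 genes, 9, 15, 11 and 17 were above background in the respective libraries, 8 were so in all 4, and 20 in none. The 8 were Hoxa5, Hoxb6, Hoxb7, Hoxd3, Hoxd4, Hoxd8, Hoxd9 and Hoxd10. They span groups 3 to 10 and hold no gene of HoxC. These counts rest on the threshold. Read against the mean receptor rate, 24, 28, 21 and 24 genes were above background and 18 in all 4 libraries, and read against keratin-associated, taste receptor and defensin genes 1, 1, 6 and 6 were so, with Hoxd8 the 1 gene in all 4. The median member had 27, 55, 5 and 11 counts, so differences for most single genes were not detectable at this depth, least of all in the wild type library after culture.

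**Figure D1:**
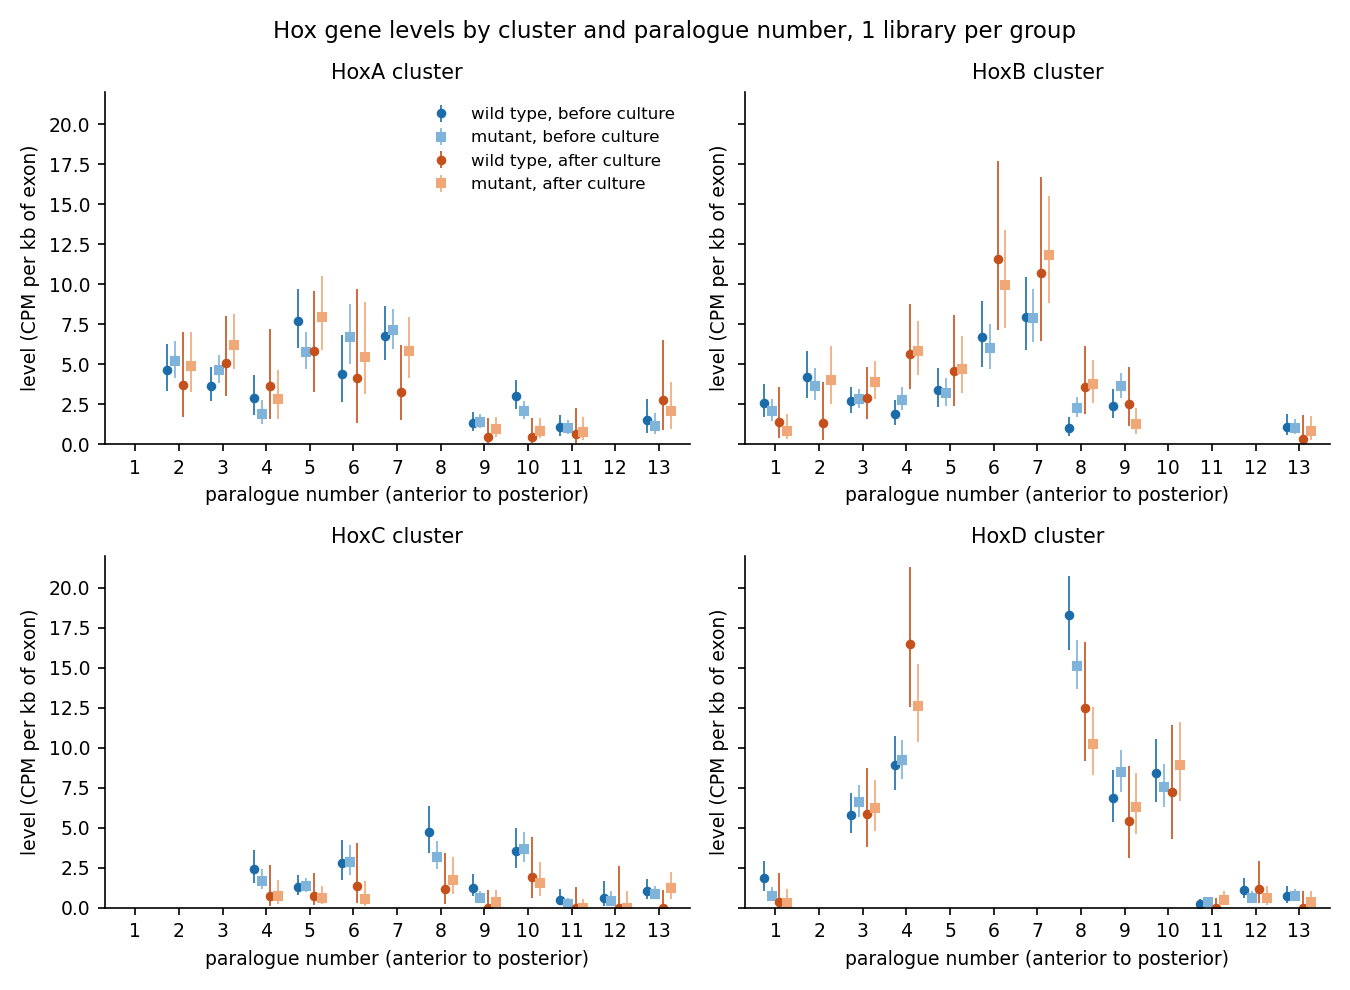
Level of 38 of the 39 Hox genes in TMM-scaled CPM per kb of exon, by cluster (panels) and paralogue number (x axis), with points for the 4 libraries and bars for the 95% Poisson interval. Hoxd8 is the highest point before culture at 18.3 and 15.1 CPM per kb, and Hoxd4 the highest after it at 16.5 and 12.6. Groups 11 to 13 are low, with Hoxa13 their highest point, at 2.78 and 2.06 CPM per kb after culture.

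The HoxD cluster led in every library. It held 42.1%, 41.7%, 44.0% and 38.8% of the Hox counts, spread over 5 neighbouring genes with the remaining 4 near background. Hoxd8 stood first before culture. In vascular cells made from mouse embryonic stem cells this gene has been described as a target of the lymphatic factor Prox1. It had 250, 382, 47 and 94 counts, which is 18.3, 15.1, 12.5 and 10.2 CPM per kb of exon. Hoxd4, which patterns hindbrain and neck, had 114, 217, 58 and 108 counts, or 8.94, 9.20, 16.5 and 12.6 CPM per kb. Hoxd8 was thus the higher of the pair in both libraries before culture and the lower in both after it.

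Hoxd3, whose human counterpart promotes an invasive state of endothelium, held an even level of 5.82, 6.62, 5.88 and 6.25 CPM per kb. Hoxd9, a gene of the lower trunk and limbs, stood at 6.86, 8.49, 5.45 and 6.30 CPM per kb. Hoxd10, whose human counterpart is linked to quiescent endothelium, stood at 8.40, 7.53, 7.21 and 8.89 CPM per kb. On this scale the 3 genes kept a similar level with culture, within their counting intervals. On total counts the culture folds in wild type and mutant cells were 0.657 (0.399 to 1.04) and 0.692 (0.510 to 0.928) for Hoxd3, 0.516 (0.280 to 0.895) and 0.544 (0.383 to 0.761) for Hoxd9, and 0.557 (0.314 to 0.941) and 0.866 (0.618 to 1.20) for Hoxd10. Hoxd3 and Hoxd4 overlap on the same strand in the annotation, and how reads in their shared exons were assigned is not given in the sources used here. On the far side of Hoxd10 the cluster was at background: Hoxd11, Hoxd12 and Hoxd13 held 5 to 17 counts before culture and 0 to 7 after it.

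Hoxd8, Hoxd4 and Hoxd13 lie close together in 1 cluster yet differ in level, and Hoxd8 and Hoxd4 also in their course through culture. Their promoters are shown for that reason, and that of Hoxb4 because it is the paralogue of Hoxd4. Each is the RefSeq window of GRCm38.p6 (the assembly of mm10) from 250 bases before to 50 bases after a transcript start, 5′ to 3′ on the gene's strand, with each CG in capitals.
Hoxd8 promoter, chr2:74704365-74704664, plus strand: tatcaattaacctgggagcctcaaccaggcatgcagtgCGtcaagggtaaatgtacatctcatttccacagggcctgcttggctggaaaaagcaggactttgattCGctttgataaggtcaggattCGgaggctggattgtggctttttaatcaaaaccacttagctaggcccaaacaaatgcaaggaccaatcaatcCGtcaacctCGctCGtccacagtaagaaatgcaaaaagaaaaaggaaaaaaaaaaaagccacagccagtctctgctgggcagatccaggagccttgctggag
Hoxd4 promoter, chr2:74721728-74722027, plus strand: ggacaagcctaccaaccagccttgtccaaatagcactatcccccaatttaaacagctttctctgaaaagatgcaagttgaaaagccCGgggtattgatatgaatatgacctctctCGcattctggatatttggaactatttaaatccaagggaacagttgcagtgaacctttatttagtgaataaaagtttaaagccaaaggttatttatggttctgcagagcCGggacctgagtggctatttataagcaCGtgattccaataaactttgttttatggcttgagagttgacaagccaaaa
Hoxd13 promoter, chr2:74667975-74668274, plus strand: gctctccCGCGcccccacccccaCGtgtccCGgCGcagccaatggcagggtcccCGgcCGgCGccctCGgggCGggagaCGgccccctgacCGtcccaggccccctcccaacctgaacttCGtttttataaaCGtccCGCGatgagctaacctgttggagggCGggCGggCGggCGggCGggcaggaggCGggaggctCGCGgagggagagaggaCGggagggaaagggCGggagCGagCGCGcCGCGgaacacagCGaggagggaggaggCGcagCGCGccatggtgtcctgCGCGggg
Hoxb4 promoter, chr11:96318017-96318316, plus strand: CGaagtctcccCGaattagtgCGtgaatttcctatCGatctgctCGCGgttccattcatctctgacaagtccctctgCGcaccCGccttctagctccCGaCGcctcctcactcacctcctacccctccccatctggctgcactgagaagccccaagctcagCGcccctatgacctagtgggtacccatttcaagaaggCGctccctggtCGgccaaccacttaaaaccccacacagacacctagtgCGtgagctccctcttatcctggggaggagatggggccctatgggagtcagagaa
The windows of Hoxd8 and Hoxd4 hold 6 and 4 CG dinucleotides, those of Hoxb4 and Hoxd13 14 and 37. The 24 windows found for 22 Hox genes held a median of 14.5, against 7 in all 32851 promoter windows. The CCAAT motif (CCAAT on either strand) was found in 15 of the 24 windows, 62.5%, and in 37.4% of all windows. The joint PBX and HOX motif (TGATNNAT, either strand, matches of different motifs being free to overlap) was found in 4, 16.7%, against 8.85%. The TATA motif (TATAAA, either strand) was found in 4, 16.7%, against 13.6%, and the GATA motif (AGATAA, either strand) in 0, against 11.2%. A match here describes letters and not a bound site.

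HoxA came next before culture, with 25.7% and 24.9% of the Hox counts, and held 21.5% and 25.8% after it. Hoxa5, needed for the airways and an inhibitor of vessel sprouting in human endothelial cells, stood at 7.70, 5.78, 5.81 and 7.97 CPM per kb. Hoxa7 had 68, 132, 9 and 39 counts and stood at 6.79, 7.13, 3.26 and 5.81 CPM per kb. It is known for patterning the vertebral column, as is Hoxa6, which stood at 4.36, 6.71, 4.16 and 5.47 CPM per kb. Hoxa3, which guides the formation of thymus and parathyroid from the pharynx, stood at 3.64, 4.65, 5.05 and 6.23 CPM per kb. Hoxa2, which sets the identity of the second pharyngeal arch, stood at 4.64, 5.20, 3.69 and 4.89 CPM per kb. The middle of HoxA was thus its highest stretch, and Hoxa9, Hoxa10, Hoxa11 and Hoxa13 were above background in no library.

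HoxB held 20.6% and 23.4% of the Hox counts before culture and 30.4% and 30.5% after it. Its highest genes were the neighbours Hoxb6 and Hoxb7. Hoxb7, whose human counterpart induces growth factors of vessels, stood at 7.93, 7.90, 10.7 and 11.8 CPM per kb. Hoxb6, known from limb and blood lineages, stood at 6.69, 6.0, 11.6 and 9.96 CPM per kb. On this scale both were higher in each library after culture than in either before it. Hoxb2, a hindbrain gene, stood at 4.19, 3.67, 1.34 and 4.04 CPM per kb, and Hoxb9, a gene of the thorax, at 2.42, 3.63, 2.54 and 1.28 CPM per kb. Hoxb4, which expands blood stem cells when overexpressed, was above background only after culture: it had 24, 66, 20 and 50 counts, or 1.88, 2.79, 5.67 and 5.83 CPM per kb.

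HoxC was the lowest cluster. It held 11.7% and 10.0% of the Hox counts before culture and 4.19% and 4.90% after it, and stood at 1.49, 1.81, 1.64 and 1.64 times the receptor rate per kb. Hoxc10, a gene of the lumbar cord, was its 1 member above background in any library, in mutant cells before culture, with 34, 65, 5 and 10 counts or 3.57, 3.70, 1.91 and 1.57 CPM per kb. Its locus overlaps that of Hoxc5 on the same strand. Hoxc11 and Hoxc12 held 3 to 5 counts before culture and 0 after it.

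By position, the central class held the most Hox counts before culture, 634 and 1080 against 517 and 947 for the anterior class, and the anterior class held the most after it. Without Hoxd8 the central class had 384 and 698 counts before culture, fewer than the anterior class. These counts are not divided by length, and the anterior class has more exon sequence, 27.38 against 21.02 kb. Per kb the central class stood higher in every library, at 6.05, 5.58, 5.19 and 5.36 CPM against 3.79, 3.75, 4.46 and 4.53. Without Hoxd8 it stood at 4.22, 4.15, 4.10 and 4.63 CPM per kb, under the anterior class in wild type cells after culture alone. Per kb of exon before culture, groups 7 and 8 stood highest, at 5.44 and 6.39 times the receptor rate in wild type and 8.23 and 8.16 times in mutant cells. Group 1 stood at 1.87 and 1.59 times it, with no member above background. Groups 11, 12 and 13, which shape limbs, tail and genitalia, stood at 0.390, 0.720 and 0.785 times the rate in wild type and 0.564, 0.640 and 1.02 times in mutant cells, at or under the level of silent receptor genes. Before culture the record thus ended between groups 10 and 11 in both genotypes. After culture group 11 stood at 0.438 and 0.949 times the rate, group 12 at 2.09 and 0.872 times on 4 and 5 counts, and group 13 at 1.32 and 2.06 times on 6 and 28 counts, and no gene of these groups was above background in either library. The mean paralogue number, weighted by counts per kb above the receptor rate, was 6.23 (6.02 to 6.43) in wild type and 6.23 (6.10 to 6.37) in mutant cells before culture, and 5.95 (5.65 to 6.25) and 5.90 (5.70 to 6.10) after it. The intervals overlapped in wild type cells and lay side by side without overlap in mutant cells, whose libraries held more counts.

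**Figure D2:**
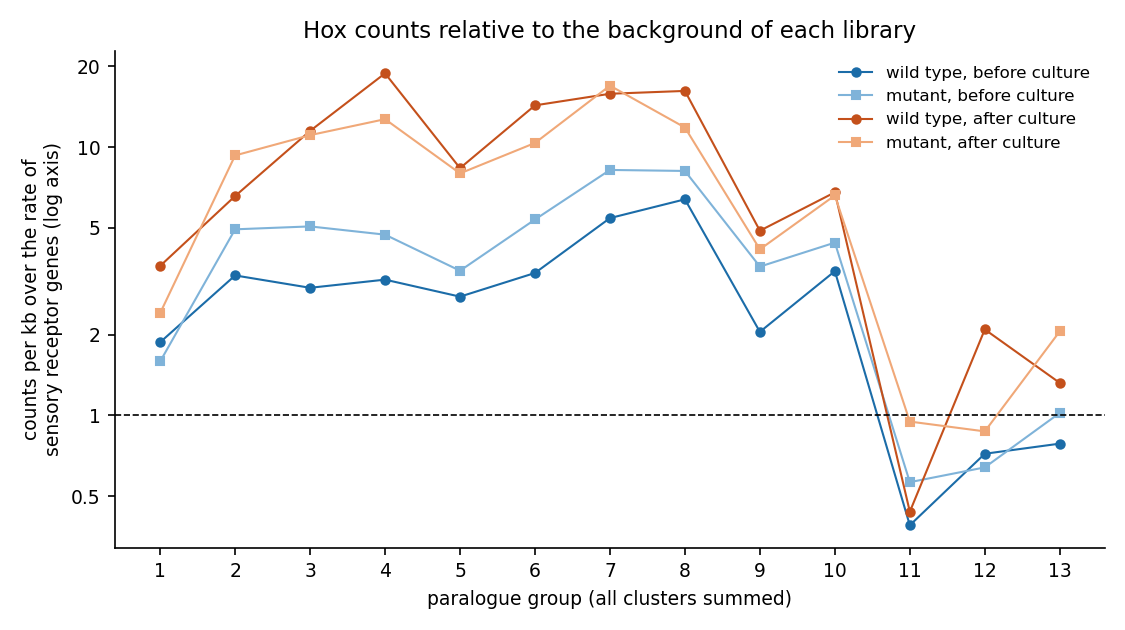
Summed counts per kb of each paralogue group, divided by the rate of sensory receptor genes in the same library (log axis), for the 4 libraries, with the dashed line at the receptor rate. Groups 1 to 10 lie above the line in all 4 libraries, and group 11 lies below it in all 4, at 0.390, 0.564, 0.438 and 0.949.

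The first comparison asks whether the deletion altered the positional record before culture. A gene counted as measured with 20 counts or more in either library, and as called where its fold was over 2-fold across the entire interval. By that rule 0 of the 31 Hox genes measured were called, where 0.0158% of all genes measured were called higher and 0.0475% lower. Counting instead every gene whose interval lay wholly on 1 side of a fold of 1, a rule added after the values were seen, 1 Hox gene was higher and 2 were lower, against 17.6% and 8.54% of all genes. The ranks of the 39 levels per kb had a Spearman correlation of 0.931 between the genotypes, across genes that share their libraries and depth. The median log2 fold of the measured Hox genes was -0.004, with 15 above 0 and 16 below, and that of all genes was 0.04. Among the sums over classes, clusters and paralogue groups, 1 had an interval that leaves out a fold of 1: group 1 stood at 0.576 (0.417 to 0.797), and at 0.458 (0.215 to 0.974) with background subtracted. The fold of HoxC over that of HoxB was 0.754 (0.594 to 0.958), and 0.778 (0.441 to 1.37) with background subtracted. More sums left out 1 once background was taken away with the TMM factors kept: HoxB at 1.44 (1.15 to 1.82), the posterior class at 1.57 (1.13 to 2.17), group 3 at 1.39 (1.08 to 1.79) and group 9 at 1.68 (1.17 to 2.40). Posterior over central, free of the scaling, was then 1.59 (1.12 to 2.24). With the factors recomputed the fold of all Hox genes went from 1.13 to 1.01. The single sums were not recomputed, and their intervals need not leave out 1 on that scale.

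Of these, Hoxb8, known for holding myeloid progenitors immature when overexpressed, had 13 and 55 counts in wild type and mutant cells before culture, a fold of 2.29 (1.23 to 4.57), but it lay under the receptor rate in wild type cells. Hoxd8 had a fold of 0.826 (0.703 to 0.973), and 0.838 with background subtracted. After culture Hoxd8 had a similar fold of 0.822 (0.573 to 1.19), with an interval that spans 1.

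After culture, 0 of the 16 Hox genes measured were called between genotypes, where 0.244% of all genes were called higher in mutant cells and 0.0731% lower. By the rule of an interval on 1 side of 1, 0 were higher and 0 lower, against 9.48% and 12.3% of all genes. Folds ranged from 0.765 for Hoxd4 to 3.01 for Hoxb2, whose interval ran from 0.906 to 15.7 on 3 and 22 counts. The median log2 fold was 0.17, with 13 genes above 0 and 3 below, and that of all genes was 0.004. The other members had fewer than 20 counts in both libraries, so that their differences were not detectable at this depth. Over all 4 libraries, with culture as the block, edgeR's quasi-likelihood test called 0 of 31 Hox genes between genotypes at a threshold of 0.05 on the adjusted p, where 0.0106% of all genes were called higher and 0.0211% lower. None of the 31 had an unadjusted p under 0.05.

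The next comparison follows the record through culture. It was kept in outline: the Spearman correlation of levels per kb before and after culture was 0.821 in wild type and 0.898 in mutant cells, as a description across genes. Between genotypes it was higher, at 0.931 before culture and 0.936 after it. Wild type cells after culture stood at 0.881 with mutant cells before culture, above the value with their own genotype. None of the members was called, 0 of 25 measured in wild type and 0 of 31 in mutant cells. The shares of all genes called higher were 8.17% and 5.19%, and the shares called lower 5.77% and 3.62%. By the rule of an interval on 1 side of 1, 2 Hox genes were higher and 4 lower in wild type cells, which is 8.0% and 16.0% of those measured against 33.9% and 27.3% of all genes. In mutant cells 5 were higher and 6 lower, 16.1% and 19.4%, against 32.4% and 27.0% of all genes. The shares were not tested against each other, and Hox genes have few counts.

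Within that outline the weight shifted between clusters. HoxB was 1.34-fold higher after culture in wild type (1.07 to 1.66) and 1.29-fold higher in mutant cells (1.12 to 1.49). On total counts these folds were 0.866 and 0.948, below 1. HoxC had folds of 0.324 (0.181 to 0.541) and 0.484 (0.349 to 0.660). With background subtracted they were 0.387 (0.102 to 1.46), an interval that spans 1, and 0.425 (0.197 to 0.918). HoxD had folds of 0.946 (0.793 to 1.12) and 0.925 (0.821 to 1.04), with both intervals spanning 1. The fold of HoxC over that of HoxB, which no scaling can move, was 0.243 (0.130 to 0.428) in wild type and 0.375 (0.262 to 0.528) in mutant cells, and 0.175 (0.0449 to 0.681) and 0.267 (0.121 to 0.586) with background subtracted. Relative to HoxB, HoxC was thus lower after culture in both genotypes, also with receptor background taken away. Relative to HoxA and HoxD with background taken away, it was 0.369 (0.0945 to 1.44) and 0.336 (0.0877 to 1.29) in wild type, intervals that span 1, and 0.346 (0.157 to 0.763) and 0.423 (0.194 to 0.922) in mutant cells. HoxC held 179, 273, 16 and 48 counts, where receptor genes of its length would hold 120.3, 151.1, 9.74 and 29.2.

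**Figure D3:**
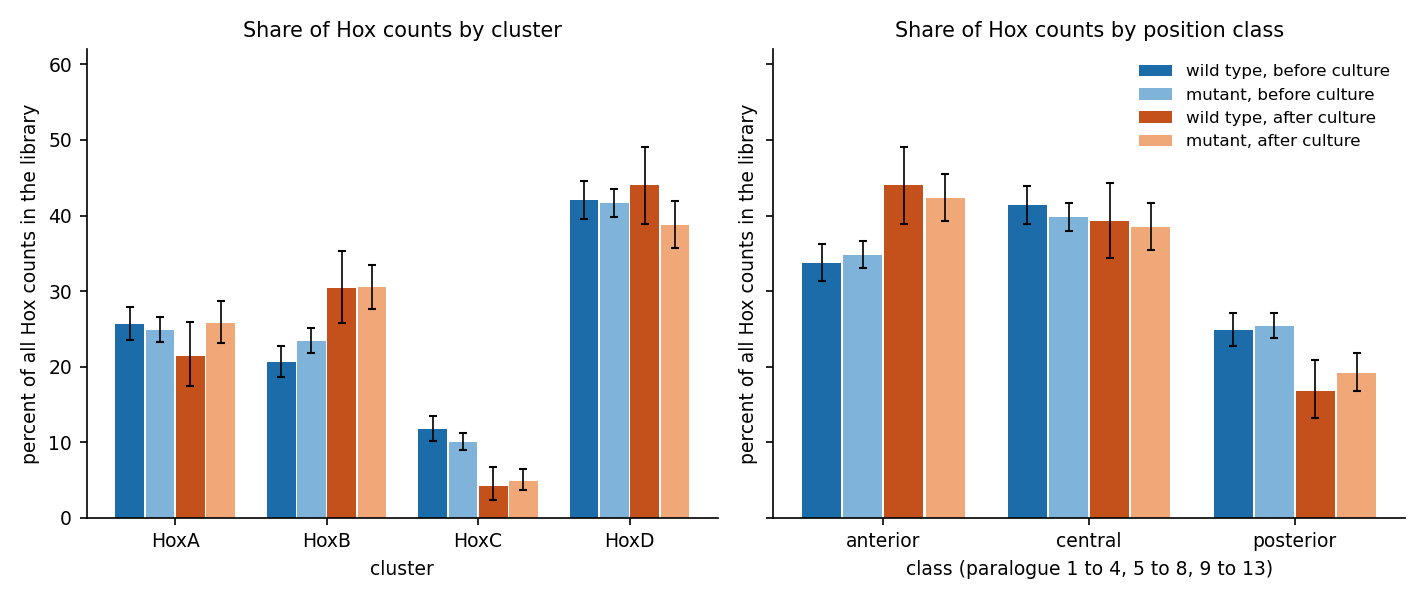
Share of all Hox counts in a library taken by each cluster (left) and by each class of paralogue groups (right), in percent, with 95% exact binomial intervals, for the 4 libraries. HoxB takes 20.6% and 23.4% before culture and 30.4% and 30.5% after it, and HoxC 11.7% and 10.0% before and 4.19% and 4.90% after.

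By position, the anterior class took 33.8% and 34.8% of the Hox counts before culture and 44.0% and 42.4% after it. The posterior class took 24.8% and 25.4% before and 16.8% and 19.2% after, and the central class 41.4%, 39.7%, 39.3% and 38.5%. The posterior fold over the anterior fold was 0.519 (0.371 to 0.718) in wild type and 0.621 (0.506 to 0.760) in mutant cells. Background bears on this value, since posterior genes are those nearest to it. With background subtracted it was 0.737 (0.443 to 1.23) in wild type, an interval that spans 1, and 0.655 (0.492 to 0.872) in mutant cells. Central over anterior was 0.728 (0.563 to 0.941) and 0.797 (0.673 to 0.942), and 0.614 (0.459 to 0.821) and 0.735 (0.608 to 0.889) with background subtracted. For the posterior class the interval thus stayed below 1 in mutant cells alone once background was taken away. The central values rest on a few genes. Without Hoxd8, central over anterior was 0.826 (0.618 to 1.10) and 0.925 (0.769 to 1.11), and with group 4 left out of the anterior class it was 0.982 (0.719 to 1.35) and 0.891 (0.734 to 1.08), all intervals that span 1. The anterior class without group 4 took 21.7% and 22.3% of the Hox counts before culture and 20.9% and 24.2% after it. The central genes of HoxB had folds of 1.68 (1.23 to 2.27) in wild type and 1.57 (1.28 to 1.91) in mutant cells. Those of the anterior class were 1.18 (0.984 to 1.41) and 1.21 (1.07 to 1.36). The ratio of the former to the latter was 1.43 (0.997 to 2.04) and 1.30 (1.03 to 1.64). With background subtracted it was 1.45 (0.951 to 2.19) and 1.30 (0.999 to 1.69). Its interval thus lay above 1 in mutant cells alone, and only without subtraction.

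Group 4 gained the most share of the 13 groups in both genotypes. Its 4 genes held 12.1%, 12.6%, 23.0% and 18.2% of the Hox counts, a culture fold of 1.72 (1.32 to 2.23) in wild type and 1.43 (1.19 to 1.72) in mutant cells. Hoxb4 had the highest fold of any measured Hox gene in both genotypes, 3.02 (1.58 to 5.71) and 2.09 (1.42 to 3.06), and on total counts 1.96 (1.03 to 3.70) and 1.53 (1.04 to 2.24). Hoxd4 had folds of 1.84 (1.32 to 2.55) and 1.37 (1.08 to 1.74), and on total counts 1.20 (0.857 to 1.66) and 1.01 (0.791 to 1.27), intervals that span 1. Hoxa4 had 23, 28, 8 and 15 counts and folds of 1.26 (0.488 to 2.92) and 1.48 (0.733 to 2.86). Hoxc4 had 24, 31, 2 and 5 counts and folds of 0.302 (0.0346 to 1.22) and 0.444 (0.135 to 1.15). The gain of group 4 was thus carried by Hoxb4 and Hoxd4, while the intervals of their paralogues in HoxA and HoxC span 1. These genes, and those named in the next paragraphs, were singled out after their values were seen.

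Hoxd8 had nearly the same fold in both genotypes, 0.682 (0.488 to 0.934) in wild type and 0.678 (0.535 to 0.852) in mutant cells, and its interval stayed below 1 with background subtracted, at 0.712 (0.515 to 0.984) and 0.687 (0.542 to 0.871). The fold of Hoxd4 over that of Hoxd8, free of the scaling, was 2.71 (1.69 to 4.33) in wild type and 2.02 (1.45 to 2.83) in mutant cells. Hoxa10, a gene of the lumbar region and the uterus, was the other gene whose interval lay below 1 in both, with 47, 61, 2 and 9 counts and folds of 0.154 (0.0182 to 0.589) and 0.407 (0.178 to 0.823). It was not above background before culture. In all, 4 genes met that rule in the same direction in both genotypes, Hoxb4 and Hoxd4 above 1 and Hoxa10 and Hoxd8 below 1. On total counts Hoxd4 no longer met it, and Hoxb4 was the 1 gene above 1 in both genotypes and Hoxa7, Hoxa10, Hoxc4, Hoxc8, Hoxc10, Hoxd8 and Hoxd9 the 7 below 1. The share of all genes that met the rule in both genotypes was not computed on either scale. These counts are therefore no result about Hox genes as a set. In wild type and mutant cells taken singly, 33.9% and 32.4% of all genes lay above 1 on the TMM scale, and 27.3% and 27.0% below. A fit added after the values were seen, edgeR's quasi-likelihood test over the 4 libraries with genotype as the block, tested 31 Hox genes for culture on the TMM scale. It rests on 1 residual degree of freedom, takes the genotypes to respond alike, borrows its spread from all genes, and subtracts no background. Hoxb4 (Benjamini-Hochberg adjusted p = 0.0159) and Hoxd4 (adjusted p = 0.0339) rose, and Hoxa10 (adjusted p = 0.0184) and Hoxd8 (adjusted p = 0.0231) fell, by edgeR. These were 2 higher and 2 lower, 6.45% each, where 23.4% of all genes tested rose and 17.4% fell.

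In mutant cells, which had more counts, Hoxb6 with a fold of 1.66 (1.12 to 2.45), Hoxb7 with 1.5 (1.04 to 2.12) and Hoxb8 with 1.65 (1.04 to 2.59) also had intervals above 1, which for all 3 span 1 on total counts. Their wild type folds were 1.73 (0.977 to 2.97) and 1.35 (0.753 to 2.33) for Hoxb6 and Hoxb7, and Hoxb8 had 13 counts in each wild type library, too few to be measured. Also lower in mutant cells were Hoxb1 at 0.413 (0.143 to 0.981), Hoxb9 at 0.352 (0.17 to 0.663), Hoxc6 at 0.197 (0.0390 to 0.616) and Hoxc10 at 0.424 (0.194 to 0.830). Also lower in wild type cells were Hoxa7 at 0.480 (0.210 to 0.966) and Hoxc8 at 0.247 (0.0491 to 0.771). The mutant values of these 2 were 0.814 (0.554 to 1.17) and 0.551 (0.260 to 1.06). Of the genes listed here Hoxb6 and Hoxb7 were above background in all 4 libraries.

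Of the 25 genes measured in both genotypes, 8 had both log2 folds above 0, 11 had both below 0, and 6 had opposite signs. Hoxa5, Hoxb2, Hoxb9, Hoxd3 and Hoxd10 were among the 6. The folds of the genotypes had a Pearson correlation of 0.68 and a Spearman correlation of 0.73 across these genes, as a description. The median log2 fold of the measured Hox genes was -0.32 in wild type and -0.09 in mutant cells, and that of all genes was -0.05 and -0.09. By cluster the medians were 0.26 and 0.50 for HoxB and -1.19 and -0.99 for HoxC.

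**Figure D4:**
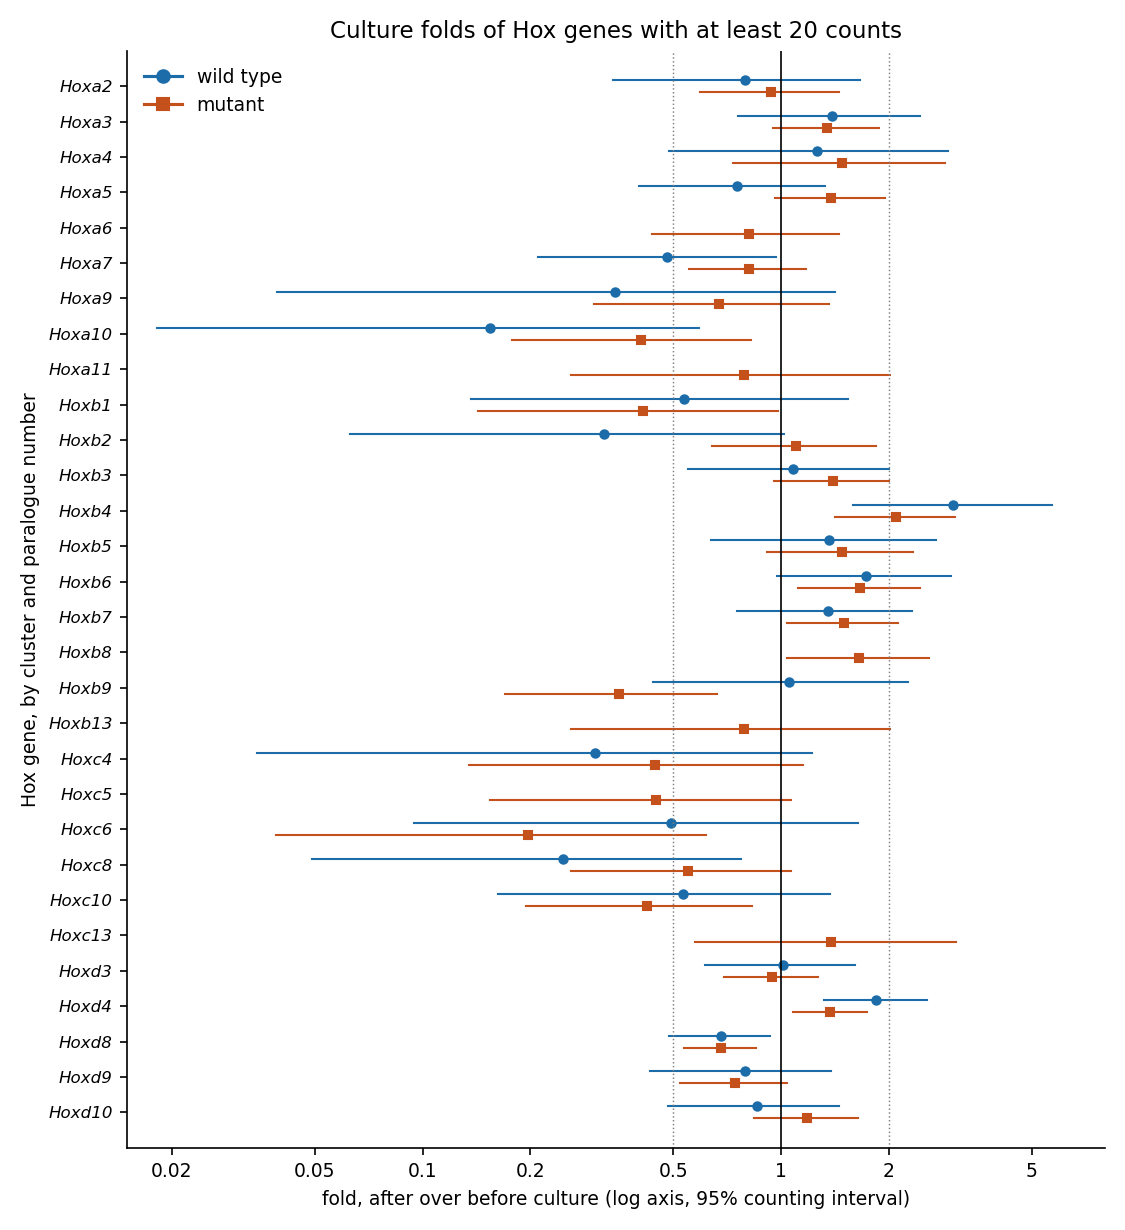
Fold of the Hox genes drawn in the plot of levels, after over before culture (log axis) with its 95% counting interval, in wild type (circles) and mutant cells (squares), for genes with at least 20 counts in either library of the genotype, and dotted lines at 2-fold. Hoxb4 and Hoxd4 lie above 1 and Hoxa10 and Hoxd8 below 1 with their whole interval in both genotypes on the TMM scale, and no interval lies wholly beyond 2-fold.

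The partners and regulators of Hox genes were read from lists chosen by their roles. Of 9 cofactor genes, which encode the PBX, MEIS and PREP proteins that bind DNA together with Hox proteins, Meis2 was called higher after culture in both genotypes. It had 306, 652, 277 and 542 counts and folds of 3.28 (2.78 to 3.87) and 2.29 (2.04 to 2.57), the 1 call in each genotype among 9 genes measured, where 8.17% and 5.19% of all genes were called higher. The cofactors summed to 268.7, 315.0, 529.6 and 447.7 CPM, with median log2 folds of 0.59 and 0.48, where all genes had -0.05 and -0.09.

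Of 13 genes of the Cdx family and of retinoic acid metabolism and response, which set the limits of Hox expression in the embryo, 1 of 11 measured was called higher and 1 lower in wild type cells, and 0 of 13 in mutant cells. Rarg, a retinoic acid receptor, had 102, 261, 95 and 217 counts and folds of 3.38 (2.53 to 4.51) and 2.29 (1.90 to 2.75). Aldh1a2, the main enzyme of retinoic acid synthesis in the embryo, had 81, 120, 3 and 23 counts and folds of 0.134 (0.0271 to 0.407) and 0.528 (0.322 to 0.830). Cdx1, Cdx2 and Cdx4 held 17 to 49 counts before culture and 0 to 7 after it, at 1.14 to 3.02 times the receptor rate before culture. The median log2 folds of the list were -1.59 and -0.83.

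Polycomb proteins keep Hox clusters silent and Trithorax proteins keep them active. Of 19 Polycomb genes, 1 of 18 measured was called higher in wild type and 2 of 19 in mutant cells, with 0 lower in either. Phc3, a subunit of the repressive complex PRC1, had folds of 2.69 (2.26 to 3.18) and 2.50 (2.22 to 2.82). Ezh1, a histone methyltransferase of PRC2, had folds of 2.26 (1.78 to 2.86) and 2.50 (2.15 to 2.92). Of 10 Trithorax genes, 2 were called higher in wild type and 0 in mutant cells. Wbp7, an older symbol of Kmt2b, had folds of 2.46 (2.14 to 2.82) and 1.63 (1.49 to 1.78), and Kdm6b, which removes the Polycomb mark, 2.39 (2.12 to 2.69) and 1.5 (1.39 to 1.63). Median log2 folds were 0.39 and 0.23 for the Polycomb and 0.56 and 0.16 for the Trithorax genes.

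Of 34 other genes that mark regions of the embryo, 3 of 24 measured were called higher and 2 lower in wild type cells, and 3 and 2 of 33 in mutant cells. Of all genes, 8.17% were called higher and 5.77% lower in wild type cells, and 5.19% and 3.62% in mutant cells, shares that apply to the other lists here as well. Gata4, a factor of heart and liver vessels, had 33, 66, 826 and 1605 counts and folds of 90.7 (64.1 to 132.7) and 67.0 (52.4 to 87.1), from 1.47 and 2.33 times the receptor rate before culture. Gata6 had folds of 3.57 (2.53 to 5.04) and 4.13 (3.33 to 5.15). Tbx1, a factor of the pharyngeal region that is also active in lymphatic vessels, had 449, 975, 31 and 55 counts and folds of 0.25 (0.168 to 0.360) and 0.155 (0.116 to 0.204). Tbx2 was called higher in wild type cells with a fold of 3.89 (2.76 to 5.50) and stood at 2.05 (1.57 to 2.66) in mutant cells. Dlx5 was called higher in mutant cells, with 17 and 24 counts and a fold of 3.89 (2.0 to 7.71). Tbx3 was called lower in mutant cells, at 0.318 (0.197 to 0.492), and Hand2 in wild type cells, with 33 counts before culture and 0 after it. Their median log2 folds were -1.38 and -0.73. Between genotypes none of the genes on the lists of cofactors, upstream, Polycomb, Trithorax and position genes was called, before or after culture.

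The chromosomal neighbours of the clusters were mostly uncalled as well, with median log2 folds of 0.37 and 0.22. Of 17 flanking genes found, 1 was called in each genotype, Tax1bp1 beside HoxA, which encodes a selective autophagy receptor and had folds of 3.58 (3.24 to 3.96) and 3.09 (2.89 to 3.31). Cbx5 beside HoxC, which encodes a heterochromatin protein, had folds of 0.797 (0.70 to 0.904) and 0.924 (0.854 to 0.999), against 0.324 and 0.484 for the HoxC genes. Of the noncoding RNAs of the clusters, Hotair within HoxC, known for its work with PRC2, had 21, 45, 0 and 12 counts. Hoxa11as had 15, 19, 0 and 5 counts and Mira 9, 12, 1 and 5. The 6 microRNA genes of the clusters summed to 17, 25, 1 and 8 counts. In the annotation 9 of the 39 Hox genes overlap a gene on the opposite strand. The kit marks strand but the setting used in counting is not given in the sources used here, so reads from the 2 strands cannot be told apart.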

How the data were processed

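RNA was measured in 4 libraries. The deposited values are raw counts of read pairs per gene symbol, made by the authors with bcl2fastq, STAR and HTSeq 0.11.2 on mm10, per the submitters' processing notes, after removal of duplicates with sambamba, per the names of the deposited tables. Neither annotation nor strand setting is stated there. HTSeq's 5 summary classes were left out of all totals. Pairs in no annotated gene were 66.5%, 53.6%, 20% and 30.3% of all pairs, and 21.4%, 34.1%, 67.6% and 56.2% did not align.

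From these counts, levels were computed as CPM with TMM factors of edgeR 4.0.16 (1.25, 1.16, 0.811 and 0.851), with exact Poisson intervals. Folds carry Clopper-Pearson intervals from the share of counts in each library, and ratios of folds exact conditional intervals. Intervals with background subtracted use the delta method. They take in counting error alone, as PCR copies of a molecule cannot be counted once without identifiers. Exon lengths are unions over the GENCODE M21 transcripts that are linked to RefSeq, found for 22872 of 23337 symbols, 98.0%, and all 39 Hox genes. Medians of log2 folds used a prior count of 2. Older symbols were matched through RefSeq synonyms. The procedure was tested on simulated data. Tools were R 4.3.3, Python 3.11.15, SciPy 1.17.1 and pandas 2.3.3.

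Values in all 4 libraries were to be given for each Hox gene above background before culture and each one called, and related lists by their called members or the 2 with the most counts. The values of some of these genes are not reported here, although sums and counts include them. The members and lists were chosen with earlier results of these data known. The alternatives were a fit by edgeR's quasi-likelihood test with additive terms for culture and genotype (genes with 20 counts or more in any library, Benjamini-Hochberg adjustment), DESeq2 1.42.0 size factors, total counts, other background rates and lengths, other minimum counts and call folds, and leaving out Hoxd8 or HoxD.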

Additional observations from a re-analysis of the deposited data

Results flagged for a closer look

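The HoxA cluster was flagged because its summed counts lay on opposite sides of 1 in the 2 genotypes. Its fold after over before culture was 0.756 (0.589 to 0.962) in wild type and 1.03 (0.889 to 1.19) in mutant cells. The mutant fold was 1.36 times the wild type fold (1.03 to 1.80), and 1.17 times it with background subtracted (0.825 to 1.66), an interval that spans 1. On total counts both folds were below 1, at 0.491 and 0.756. With 1 library per group the difference was not tested. Among its genes Hoxa7 had culture folds of 0.480 and 0.814, and Hoxa5 had 0.755 and 1.38.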

How the results depend on the processing

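Of 86 alternative values computed, 63 stayed with the reported one in direction and size or call, and 23 did not. On total counts the fold of the Hox sum was 0.891 between genotypes before culture, 0.587 for culture of wild type and 0.729 for culture of mutant cells, and that scaling moves all log2 folds by -0.11, -0.62 and -0.45 against TMM. With background subtracted and the TMM scale kept the same 3 folds were 1.13, 1.27 and 1.16. With the scale recomputed on the subtracted counts they were 1.01, 0.955 and 1.02. The count of called Hox genes in culture of wild type cells was 1 (lower) on total counts and 2 beyond 1.5-fold (1 higher and 1 lower). It was 1 (higher) with background subtracted and the TMM scale kept, and 0 with the scale recomputed. In culture of mutant cells it was 2 (lower) on total counts and 2 (lower) beyond 1.5-fold. The shares of all genes called under these other settings were not computed, so the counts show only how the calls move with the setting. Read against the mean receptor rate, 24, 28 and 21 Hox genes were above background in wild type and mutant cells before culture and wild type cells after it. Read against keratin-associated, taste receptor and defensin genes, an alternative added after the data were seen, 1, 1, 6 and 6 were so in the 4 libraries. The mean paralogue number before culture was 6.52 in wild type and 6.50 in mutant cells with exon lengths over all GENCODE transcripts, also added later, 6.49 in wild type cells against the keratin-associated set, and 6.38 in mutant cells with no subtraction. With DESeq2 size factors, or without Hoxd8 or the HoxD cluster (both added later), no fold of the sum moved beyond its interval. A paired fit with edgeR over the 4 libraries, added later, took genotype as the block: it called 4 Hox genes with culture, where 0 were called by size in both genotypes. With culture as the block it called 0 Hox genes between genotypes, 0 of them at an unadjusted p under 0.05. The depth of the wild type library after culture, with 382 Hox counts, is the main limit on single genes.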
